A study of Homo sapiens with 6 samples.

Results

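Growth cones are the motile tips of growing nerve processes, and this account follows 10 genes of that machinery and of neuronal RNA binding in IMR32 cells, a human neuroblastoma line. The 10 are GAP43, BASP1, MARCKS and MARCKSL1, which encode acidic proteins of the growth cone membrane, ELAVL2, ELAVL3 and ELAVL4, which encode the neuronal members of the Hu family of RNA-binding proteins, and CRMP1, DPYSL2 and DPYSL3, which encode collapsin response mediator proteins (CRMPs). They were chosen by name from a table of 35473 gene rows, and all 10 were found in it. The libraries came from cells given 5 µM CBR-470-1 for 24 h (3 replicates) or the DMSO vehicle in equal volume for the same time (3 replicates). CBR-470-1 is a small molecule that raises the activity of the transcription factor NRF2, and the series title places it between glycolysis and the NRF2 repressor KEAP1. Both groups are the same unmodified line at a single dose and time, so the values describe 1 tumour cell line.

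GAP43, BASP1 and MARCKS lie at the inner face of the plasma membrane, where they gather near phosphoinositides and are released by protein kinase C or calmodulin, and this links calcium and lipid signals to actin at the growth cone. CRMPs bind tubulin dimers and carry signals from semaphorins, the guidance cues that act through neuropilins and plexins, after phosphorylation by CDK5 and GSK3. The neuronal ELAVL proteins, also called HuB (ELAVL2), HuC (ELAVL3) and HuD (ELAVL4), bind AU- and U-rich stretches of messenger RNA, and HuD is known to stabilise the GAP43 message. Some of these genes, such as GAP43, are marks of young or regenerating neurons, but this is not claimed for all of them, MARCKS included. Neuroblastoma arises from sympathetic neuroblasts, which express many of these genes.

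Of the 10 genes, GAP43 and MARCKS fell after CBR-470-1 and none rose, by a limma fit of log2 values with an adjusted p under 0.05. By the same rule 0.839% of the 13470 tested genes were lower and 1.13% were higher. GAP43 fell by 22.7% and MARCKS fell by 14.8% in mean level, and the other genes did not pass the test. A log2 fold change below 0 was found for 9 of the 10, beside 43.1% of all tested genes, the exception being ELAVL4. The ELAVL2 share of the 3 neuronal ELAVL transcripts was lower, and the ELAVL4 share higher, in every CBR-470-1 library than in any DMSO library. Both shares are parts of the same total and were not tested. The log2 ratio of ELAVL2 to ELAVL4 did not overlap between groups (exact permutation p = 0.1, adjusted 0.2 over the 6 ratios compared). That p is the smallest that 3 against 3 allows, so no ratio could pass at 0.05.

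The start regions of 4 genes are shown because they carry these results: the pair that fell, and the ELAVL pair with the larger difference in ratio. The sequences are the 250 bases before the annotated start, from RefSeq on GRCh38.p14, each written on the strand of its gene, and 8 of the 10 genes had an entry. GAP43 is chr3:115623260-115623509 on the plus strand, MARCKS is chr6:113857095-113857344 on the plus strand, ELAVL2 is chr9:23826241-23826490 on the minus strand and ELAVL4 is chr1:50109583-50109832 on the plus strand. Capitals mark 3 motifs found by letter match on either strand: TGACNNNGC (the core of the antioxidant response element to which NRF2 binds), the hexamer GGGCGG, known as the GC box, and the hexamer TATAAA, known as the TATA box. CACGTG, an E-box bound by MYC and MAX, was also searched and is in none of the 8.
GAP43: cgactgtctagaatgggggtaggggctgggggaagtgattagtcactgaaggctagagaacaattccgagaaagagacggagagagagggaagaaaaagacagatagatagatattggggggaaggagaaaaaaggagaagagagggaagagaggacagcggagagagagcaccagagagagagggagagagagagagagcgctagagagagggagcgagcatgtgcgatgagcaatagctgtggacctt
MARCKS: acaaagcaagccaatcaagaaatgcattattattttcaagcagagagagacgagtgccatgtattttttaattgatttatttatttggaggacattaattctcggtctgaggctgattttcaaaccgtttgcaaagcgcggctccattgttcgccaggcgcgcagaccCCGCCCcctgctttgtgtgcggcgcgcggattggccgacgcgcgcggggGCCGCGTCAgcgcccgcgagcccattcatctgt
ELAVL2: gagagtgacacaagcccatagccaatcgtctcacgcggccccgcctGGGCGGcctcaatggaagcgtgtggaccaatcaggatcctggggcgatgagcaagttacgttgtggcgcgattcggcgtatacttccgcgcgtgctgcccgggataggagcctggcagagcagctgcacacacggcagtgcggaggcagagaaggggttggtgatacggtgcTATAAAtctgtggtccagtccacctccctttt
ELAVL4: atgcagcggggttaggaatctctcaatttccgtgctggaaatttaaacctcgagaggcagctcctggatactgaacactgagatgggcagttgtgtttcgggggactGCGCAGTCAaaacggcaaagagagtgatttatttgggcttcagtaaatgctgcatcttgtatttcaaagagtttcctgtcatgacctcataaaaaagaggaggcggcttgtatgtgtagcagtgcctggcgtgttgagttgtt
The antioxidant response element core was in 3 of the 8 windows, those of MARCKS (33 bases before the start), ELAVL4 (143 bases) and DPYSL3 (93 bases), each on the minus strand of the window, against 10.9% of all 35116 promoters of the same length. GAP43, which fell most, holds none of the 4 motifs in this window. The GC box was in 5 of the 8, with 7 copies in CRMP1 and 6 in MARCKSL1, some of them overlapping, against 42.6% of all promoters. The TATA box was in ELAVL2 alone, 32 bases before the start, against 10.7%. The looser E-box CANNTG, which includes CACGTG and is left in lower case, was in 7 of the 8 and in 61.8% of all promoters. CACGTG was in 6.34% of all promoters. A letter match is no evidence of binding, and these windows do not cover the other starts annotated for genes such as ELAVL4.

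The libraries were checked first. The columns summed to between 972453 and 973696 TPM (an abundance scaled by transcript length and by library total), and the depth behind the values is unknown. NQO1, a standard NRF2 target, averaged 66.2 ± 4.59 TPM in CBR-470-1 and 4.66 ± 0.817 TPM in DMSO (SD, n = 3 each), and was higher in every library labelled CBR-470-1. All 11 markers of adrenergic neuroblastoma cells were abundant enough to test. Blood and epithelial markers summed to at most 0.842 TPM per library, and CD3E and KRT5 were at 0 in all 6. Mesenchymal and Schwann-like markers summed to 308 to 317 TPM in CBR-470-1 and 310 to 330 TPM in DMSO, and 0 of the 7 tested passed. These sums hide opposite moves without overlap. VIM and SNAI2 were higher in CBR-470-1 (log2 fold changes 0.20 and 0.19, limma adjusted p = 0.0594 and 0.138). TWIST1 was lower (log2 fold change -0.24, limma adjusted p = 0.0852), and the other tested markers overlapped.

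The levels of the 10 genes spanned 19.4 to 397 TPM over all libraries. The order of the group means was the same in CBR-470-1 and in DMSO: MARCKSL1, CRMP1, BASP1, ELAVL4, MARCKS, ELAVL2, ELAVL3, DPYSL2, GAP43 and DPYSL3. CRMP1 and BASP1 overlapped within both groups. ELAVL4 and MARCKS overlapped within DMSO and not within CBR-470-1, and so did ELAVL3 and DPYSL2. MARCKSL1 stood higher than 96.9% of the 13470 genes that averaged at least 1 TPM and were tested, and DPYSL3, the lowest, higher than 52.5%.

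**Figure D1:**
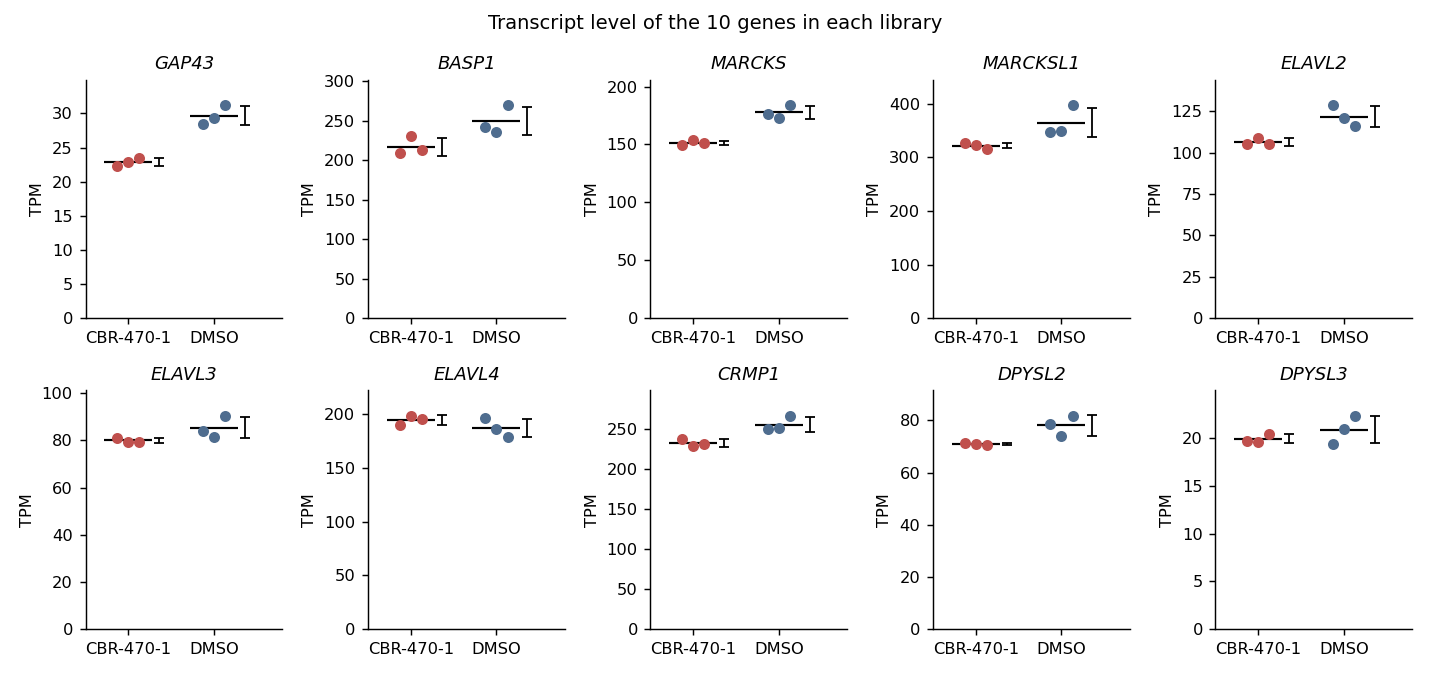
Each panel plots 1 gene, with TPM on the vertical axis from 0 and the 3 CBR-470-1 libraries left of the 3 DMSO libraries. Points are libraries, horizontal lines are means and bars are SDs. In 8 panels every CBR-470-1 point lies below every DMSO point, as for 12.5% of all tested genes, and in the ELAVL4 and DPYSL3 panels the groups overlap.

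GAP43 encodes growth-associated protein 43, a neuronal calmodulin-binding protein that is a classic marker of axon growth. It had 22.3, 22.8 and 23.5 TPM in the CBR-470-1 libraries, against 28.5, 29.3 and 31.2 TPM in the DMSO libraries. The groups were far apart relative to their spread, and the highest CBR-470-1 library lay well under the lowest DMSO library. The log2 fold change, on the log2(TPM + 1) scale used throughout, was -0.36 (SE 0.0587, 95% interval -0.495 to -0.220, limma adjusted p = 0.0364). GAP43 lies on chromosome 3 from 115623324 to 115721490 on the plus strand (GRCh38, GENCODE 29, ENSG00000172020.12), so that annotation places its start inside the RefSeq window shown above. The values sum over its annotated transcripts and do not separate exons or UTRs.

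BASP1 encodes brain acid soluble protein 1, which shares the membrane site and many properties of GAP43. It had 209, 230 and 212 TPM in CBR-470-1, against 242, 236 and 269 TPM in DMSO. The groups did not overlap, but replicate 2 of CBR-470-1 came close to replicate 2 of DMSO. BASP1 had a log2 fold change of -0.20 (95% interval -0.343 to -0.053) and did not pass (limma adjusted p = 0.121). The pseudogene row BASP1P1 was at most 0.0997 TPM in any library.

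MARCKS encodes the myristoylated alanine-rich C-kinase substrate, the founding member of its family. It had 149, 153 and 151 TPM in CBR-470-1, against 177, 173 and 184 TPM in DMSO. All CBR-470-1 libraries sat in a narrow band under the DMSO libraries. MARCKS fell, with a log2 fold change of -0.23 (SE 0.0397, 95% interval -0.323 to -0.137, limma adjusted p = 0.0414). The gene lies on chromosome 6 from 113857362 to 113863471 on the plus strand (GRCh38, GENCODE 29). The other genes lie on chromosomes 5 (BASP1 and DPYSL3), 1 (MARCKSL1 and ELAVL4), 9 (ELAVL2), 19 (ELAVL3), 4 (CRMP1) and 8 (DPYSL2).

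MARCKSL1 encodes the MARCKS-like protein and was the most abundant of the 10. It had 326, 324 and 316 TPM in CBR-470-1, against 348, 350 and 397 TPM in DMSO. The groups did not overlap, and replicate 3 of DMSO was far above the other two. Its log2 fold change of -0.18 (95% interval -0.307 to -0.049) did not pass (limma adjusted p = 0.118), and it was -0.12 without that library. Summed over MARCKS and MARCKSL1, the family held 473 ± 5.34 TPM in CBR-470-1 and 543 ± 33.1 TPM in DMSO (SD, n = 3 each).

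The calls of GAP43 and MARCKS rest on all 6 libraries. Leaving out any single library, which also leaves fewer samples, ended both calls, with limma adjusted p from 0.0713 to 0.125 for GAP43 and from 0.0811 to 0.137 for MARCKS, while the log2 fold changes stayed between -0.385 and -0.322 and between -0.25 and -0.206. Both calls were also lost with no filter on low genes (limma adjusted p = 0.0635 and 0.0646) and with no variance trend (0.0587 and 0.0983).

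**Figure D2:**
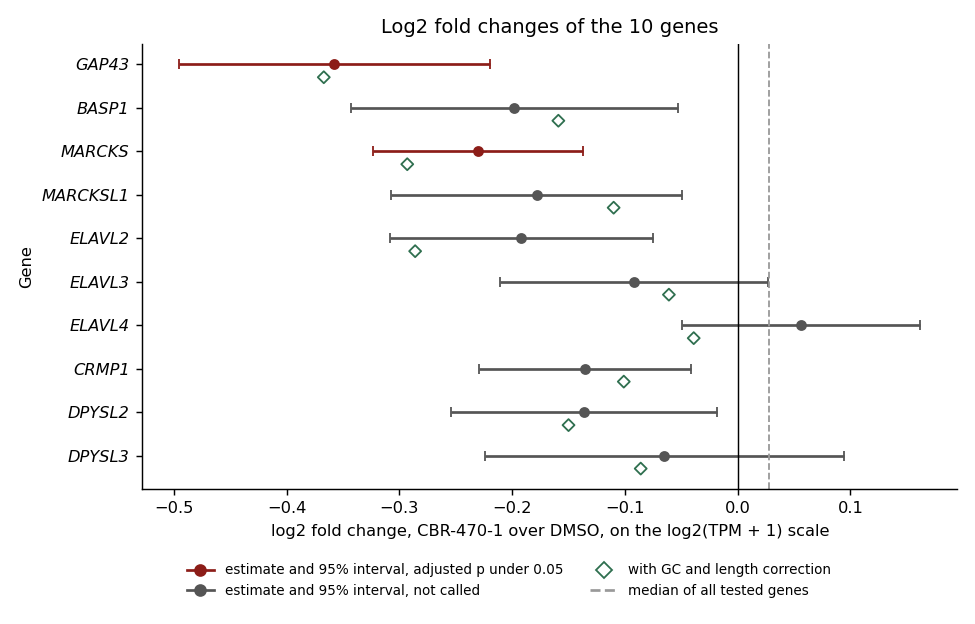
The horizontal axis gives the log2 fold change of CBR-470-1 over DMSO on the log2(TPM + 1) scale and each line is 1 gene, with bars for 95% intervals. Open diamonds repeat the estimate after a correction for GC content and length, and the dashed line is the median of all tested genes at 0.028. The GAP43 and MARCKS estimates lie at -0.36 and -0.23, and the ELAVL4 estimate changes sign with the correction.

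ELAVL2 (HuB) had 105, 109 and 105 TPM in CBR-470-1, against 128, 121 and 116 TPM in DMSO. The groups did not overlap. ELAVL2 had a log2 fold change of -0.19 (SE 0.0498, 95% interval -0.308 to -0.075) and did not pass (limma adjusted p = 0.0865). With a correction for GC content and length it passed as lower (-0.29, limma adjusted p = 0.0115). Its longest transcript has a GC content of 36.2%, the lowest of the 10.

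ELAVL3 (HuC) had 81.2, 79.2 and 79.5 TPM in CBR-470-1, against 84.1, 81.6 and 90.4 TPM in DMSO. The ranges were close to touching, and the DMSO libraries spread more than the CBR-470-1 libraries. Its log2 fold change of -0.09 (95% interval -0.211 to 0.027) did not pass (limma adjusted p = 0.317), and it was -0.051 without DMSO replicate 3.

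ELAVL4 (HuD) had 190, 199 and 196 TPM in CBR-470-1, against 196, 186 and 179 TPM in DMSO. The groups overlapped. Its log2 fold change of 0.06 (95% interval -0.049 to 0.162) did not pass (limma adjusted p = 0.486), and the estimate was -0.04 with the GC and length correction. It was 0.025 without DMSO replicate 3 and 0.09 without DMSO replicate 1. Of the ELAVL family, ELAVL1 (HuR), the member found in all tissues, averaged 51.4 ± 0.838 TPM in CBR-470-1 and 51.1 ± 0.178 TPM in DMSO (SD, n = 3 each).

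The 3 neuronal ELAVL genes together held 376, 387 and 380 TPM in CBR-470-1, against 409, 389 and 385 TPM in DMSO, and these totals overlapped. ELAVL4 made up 51.1% ± 0.496 of that total in CBR-470-1 and 47.5% ± 0.860 in DMSO, and ELAVL2 made up 27.9% ± 0.233 in CBR-470-1 and 30.9% ± 0.706 in DMSO (SD, n = 3 each). The log2 ratio of ELAVL2 to ELAVL4 was -0.851, -0.861 and -0.886 in CBR-470-1, against -0.607, -0.622 and -0.624 in DMSO. The ratios were nearly equal within each group, since in DMSO both genes were highest in replicate 1 and lowest in replicate 3. The difference was -0.25, with an exact two-sided permutation p = 0.1, the smallest that 3 against 3 allows, and 0.2 after adjustment over the 6 ratios compared. It was -0.255 to -0.238 with any single library left out and -0.25 with the GC and length correction, which was tried for the ratios after the data had been seen. The longest ELAVL2 and ELAVL4 transcripts have similar GC contents of 36.2% and 36.9%.

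The ELAVL3 to ELAVL4 log2 ratio was -1.22, -1.32 and -1.29 in CBR-470-1, against -1.21, -1.18 and -0.98 in DMSO. The groups nearly touched at replicate 1, and the difference of -0.15 (exact permutation p = 0.1, adjusted 0.2) was -0.08 when DMSO replicate 3 was left out, and -0.02 once GC content and length were corrected for. For GAP43 over BASP1 the difference was -0.16, with no overlap (exact permutation p = 0.1, adjusted 0.2). For MARCKS over MARCKSL1 it was -0.05, with overlap (exact permutation p = 0.3, adjusted 0.45). The difference for MARCKS over MARCKSL1 was -0.18, with p = 0.1 in the exact permutation test, after the GC and length correction. Without DMSO replicate 1 it was -0.02.

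**Figure D3:**
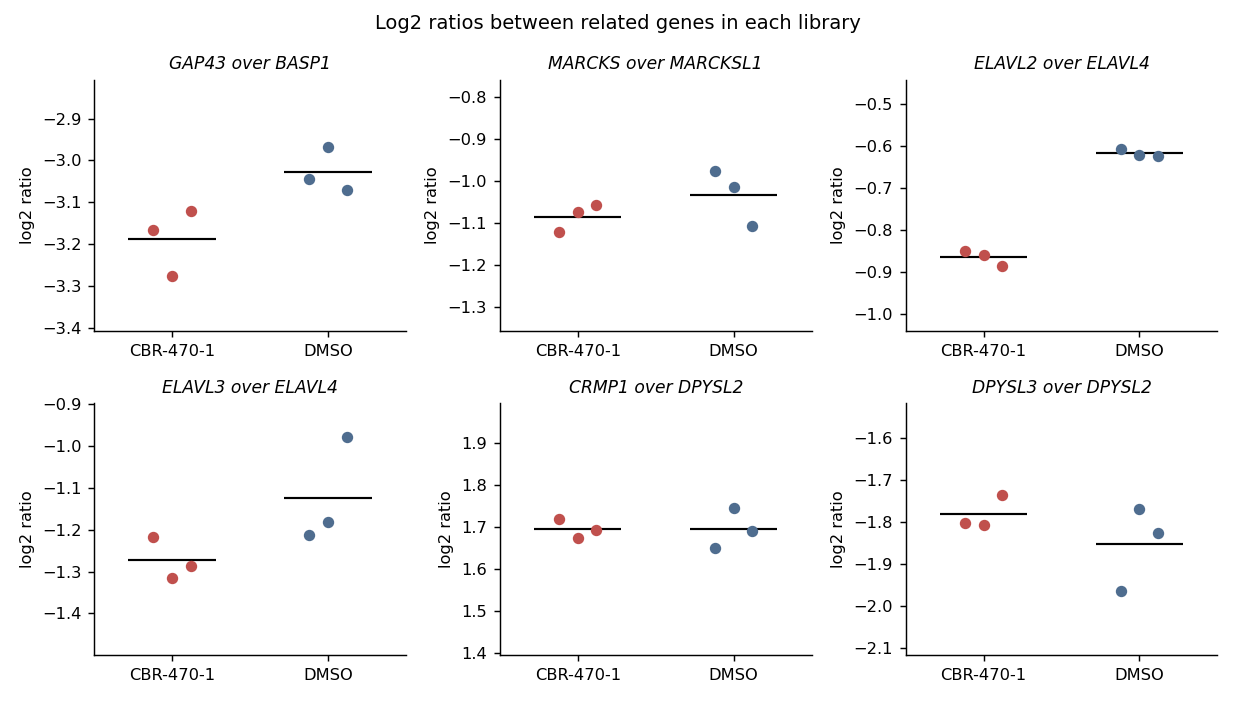
Each panel plots the log2 ratio, on the log2(TPM + 1) scale, of 2 related genes in each of the 3 CBR-470-1 libraries on the left and the 3 DMSO libraries on the right, with lines for means. All vertical axes span the same range of log2 units. The ELAVL2 over ELAVL4 points lie between -0.886 and -0.851 in CBR-470-1 and between -0.624 and -0.607 in DMSO.

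CRMP1 had 237, 228 and 230 TPM in CBR-470-1, against 248.8, 250.1 and 266 TPM in DMSO. The groups did not overlap. Its log2 fold change of -0.14 (95% interval -0.229 to -0.041) did not pass (limma adjusted p = 0.110). Exons of EVC overlap it on the other strand, with 3.49 to 3.74 TPM in CBR-470-1 and 3.09 to 3.43 TPM in DMSO, and whether strand was used in the counting is not given in the sources used here.

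DPYSL2 (CRMP2), the best studied CRMP in axon growth, had 71.3, 71.0 and 70.5 TPM in CBR-470-1, against 78.7, 73.9 and 81.7 TPM in DMSO. The CBR-470-1 values were almost identical and lay under all DMSO values. Its log2 fold change of -0.14 (95% interval -0.254 to -0.018) did not pass (limma adjusted p = 0.164). PNMA2, whose exons overlap those of DPYSL2 on the other strand, had 31.4 to 33.1 TPM in CBR-470-1 and 33.0 to 39.9 TPM in DMSO, and reads of the pair cannot be told apart without strand.

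DPYSL3 (CRMP4), the lowest of the 10, had 19.7, 19.6 and 20.4 TPM in CBR-470-1, against 19.4, 21.0 and 22.3 TPM in DMSO. The groups overlapped, and the log2 fold change of -0.06 (95% interval -0.224 to 0.094) did not pass (limma adjusted p = 0.596). Without DMSO replicate 3 the DPYSL3 estimate was -0.019, and without DMSO replicate 1 it was -0.114. Ratios to DPYSL2 were compared for CRMP1 and DPYSL3, and both differences were smaller than the larger SD of the replicates. The CRMP1 over DPYSL2 log2 ratio averaged 1.70 ± 0.0230 in CBR-470-1 and 1.69 ± 0.0486 in DMSO (SD, n = 3 each, exact permutation p = 1), and DPYSL3 over DPYSL2 averaged -1.78 ± 0.0394 in CBR-470-1 and -1.85 ± 0.0998 in DMSO (exact permutation p = 0.4, adjusted 0.48). Without DMSO replicate 1 the DPYSL3 over DPYSL2 difference of 0.071 was 0.016.

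The relatives outside the 10 did not pass either. DPYSL5 had 48.0, 54.7 and 48.1 TPM in CBR-470-1, against 62.7, 56.0 and 62.4 TPM in DMSO (log2 fold change -0.26, limma adjusted p = 0.0965). DPYSL4 had 73.2, 69.9 and 66.4 TPM in CBR-470-1, against 65.4, 65.1 and 68.0 TPM in DMSO (log2 fold change 0.08, limma adjusted p = 0.415). DPYSL4 made up 15.8% ± 0.523 of all CRMP family transcripts in CBR-470-1 and 13.8% ± 0.190 in DMSO (SD, n = 3 each).

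Read against the table as a whole, 2 of the 10 genes were called lower, where 113 of all 13470 tested genes were, and 0 were called higher, where 152 were. The groups did not overlap, with CBR-470-1 lower, for 8 of the 10, beside 1685 of all tested genes. An unadjusted limma p under 0.05 was reached by 7 of the 10, all lower, beside 9.65% of tested genes that were lower at that level. The median log2 fold change was -0.157 for the 10 and 0.028 for all tested genes. The balance of all calls depended on scaling: higher and lower calls numbered 152 and 113 as deposited, 124 and 237 with median centring and 152 and 216 with the GC and length correction. With that correction 3 of the 10 were called lower, GAP43, MARCKS and ELAVL2, beside 1.60% of all tested genes.

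The spread of the replicates and the cell markers were also read. DMSO replicate 3 held the highest DMSO value for 8 of the 10, beside 35.8% of the 6397 genes at least as abundant as DPYSL3. The replicates varied less in CBR-470-1 than in DMSO for all 10, as they did for 59.9% of those 6397 genes, with coefficients of variation of 0.596% to 5.27% in CBR-470-1 and 3.14% to 7.63% in DMSO. The adrenergic neuroblastoma markers summed to 2972 to 3012 TPM in CBR-470-1, against 3065 to 3350 TPM in DMSO, and 2 of the 11 passed as lower, DBH and CHGA. The part of cell identity in the lower levels was not tested. In bulk RNA, fewer cells of one kind and less RNA per cell cannot be told apart.

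The wider machinery was read from lists of other genes. Of 27 tested growth cone genes, which include actin regulators and membrane glycoproteins, 0 rose and 0 fell in limma, with a median log2 fold change of 0.004. DBN1, the actin-binding drebrin, had 218, 201 and 220 TPM in CBR-470-1, against 230, 239 and 286 TPM in DMSO (log2 fold change -0.23, limma adjusted p = 0.151). CDC42, a GTPase of filopodia, had 91.8, 86.6 and 83.4 TPM in CBR-470-1, against 78.2, 73.0 and 74.5 TPM in DMSO (log2 fold change 0.21, limma adjusted p = 0.0821). CTNND2 and PAK1, the other genes of the list with large changes, had log2 fold changes of -0.28 and 0.21 and overlapped between groups. Without DMSO replicate 2 the PAK1 estimate was 0.03, without CBR-470-1 replicate 3 that of CTNND2 was -0.165, and without DMSO replicate 3 that of DBN1 was -0.139. At an unadjusted p under 0.05, the list held 9 of 27 genes, beside 23.5% of all tested genes.

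The CRMP pathway list runs from semaphorin receptors to the kinases that phosphorylate CRMPs. Of its 19 tested genes, 1 rose and 1 fell, beside 1.13% and 0.839% of all tested genes. Its median log2 fold change was 0.058. NRP1, a neuropilin that binds class 3 semaphorins, had 77.0, 76.7 and 76.3 TPM in CBR-470-1, against 58.2, 54.1 and 51.7 TPM in DMSO. It rose, with a log2 fold change of 0.48 (SE 0.0545, limma adjusted p = 0.0137). Its relative NRP2 had 80.6, 86.1 and 94.98 TPM in CBR-470-1, against 66.1, 65.8 and 73.1 TPM in DMSO (log2 fold change 0.35, limma adjusted p = 0.0616). The NRP1 call was lost in 4 of the 6 fits that left out 1 library, with limma adjusted p from 0.0225 to 0.0786 over the 6.

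CDK5, a kinase that primes CRMPs for GSK3, had 33.3, 29.4 and 29.6 TPM in CBR-470-1, against 41.4, 39.1 and 42.3 TPM in DMSO. It fell, with a log2 fold change of -0.40 (SE 0.0671, limma adjusted p = 0.0377). CDK5R1, which encodes the p35 activator of CDK5, had 17.4, 17.2 and 17.3 TPM in CBR-470-1, against 20.7, 23.9 and 26.1 TPM in DMSO (log2 fold change -0.42, limma adjusted p = 0.0593). The kinase and its activator had similar estimates. CDK5R1 also passed with median centring (limma adjusted p = 0.048) and without DMSO replicate 1 (limma adjusted p = 0.0487). The CDK5 call was lost in all 6 fits that left out 1 library (limma adjusted p from 0.0582 to 0.134). NUMB, an adaptor bound by CRMP2, had a log2 fold change of 0.20 and overlapped between groups.

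Protein kinase C phosphorylates GAP43 and MARCKS, and calmodulin binds them. Of 13 tested genes of this list, 1 rose and 0 fell, beside 1.13% and 0.839% of all tested genes. PRKCA, which encodes the alpha isoform, had 21.6, 21.6 and 21.4 TPM in CBR-470-1, against 17.4, 17.2 and 17.1 TPM in DMSO (log2 fold change 0.31, SE 0.0536, limma adjusted p = 0.0423). PRKCA values were tight within both groups, yet the call was lost whenever 1 library was left out (limma adjusted p from 0.0811 to 0.137) and with quantile normalization. PRKCI, PRKCZ, PPP3CA and PPP3R1, which encode atypical protein kinases C and calcineurin subunits, had log2 fold changes of 0.19, 0.36, 0.13 and 0.17 and did not pass. The PRKCZ estimate was 0.22 without CBR-470-1 replicate 3 and 0.232 without DMSO replicate 2.

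Of 22 other RNA-binding protein genes, 0 rose and 0 fell in limma, with a median log2 fold change of -0.001. Non-overlapping lower values were found for 6 of them, beside 12.5% of all tested genes, and non-overlapping higher values for 0, beside 17.7%. The other lists did not share this lean. Such lower and higher values were found for 5 and 6 of the 27 growth cone genes. They were found for 5 and 4 of 19 in the CRMP pathway list, and 0 and 6 of 13 in the protein kinase C and calmodulin list. PTBP1, a splicing repressor that is high outside mature neurons, had 457, 454 and 478 TPM in CBR-470-1, against 517, 512 and 510 TPM in DMSO (log2 fold change -0.15, limma adjusted p = 0.0652), and it passed in 1 of 12 alternative fits. NOVA2, CELF2 and CELF4, neuronal splicing and RNA-stability factors, had log2 fold changes of -0.27, -0.23 and -0.22 without passing, and CELF4 was -0.103 without DMSO replicate 3. At an unadjusted p under 0.05, the list held 4 of 22 genes, beside 23.5% of all tested genes.

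Messages reported as HuD targets were read as a last list, of which 7 were tested. Of these, 1 rose and 1 fell, beside 1.13% and 0.839% of all tested genes. Values without overlap were lower for 2 of the 7 and higher for 1, beside 12.5% and 17.7% of all tested genes. GAP43 itself fell and CDKN1A, a cell cycle inhibitor, rose, with 45.8, 45.3 and 46.4 TPM in CBR-470-1, against 36.2, 34.4 and 39.2 TPM in DMSO (log2 fold change 0.32, limma adjusted p = 0.0493). The CDKN1A call was lost in 11 of 12 alternative fits. MYCN, amplified in IMR32, had 1078, 1130 and 1106 TPM in CBR-470-1, against 1134, 1148 and 1236 TPM in DMSO (log2 fold change -0.09, limma adjusted p = 0.246). MAPT and SATB1 had log2 fold changes of -0.11 and 0.17 and overlapped between groups. The MYCN estimate was -0.047 without DMSO replicate 3, and that of MAPT was -0.058 without CBR-470-1 replicate 3 and -0.191 without CBR-470-1 replicate 1.

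**Figure D4:**
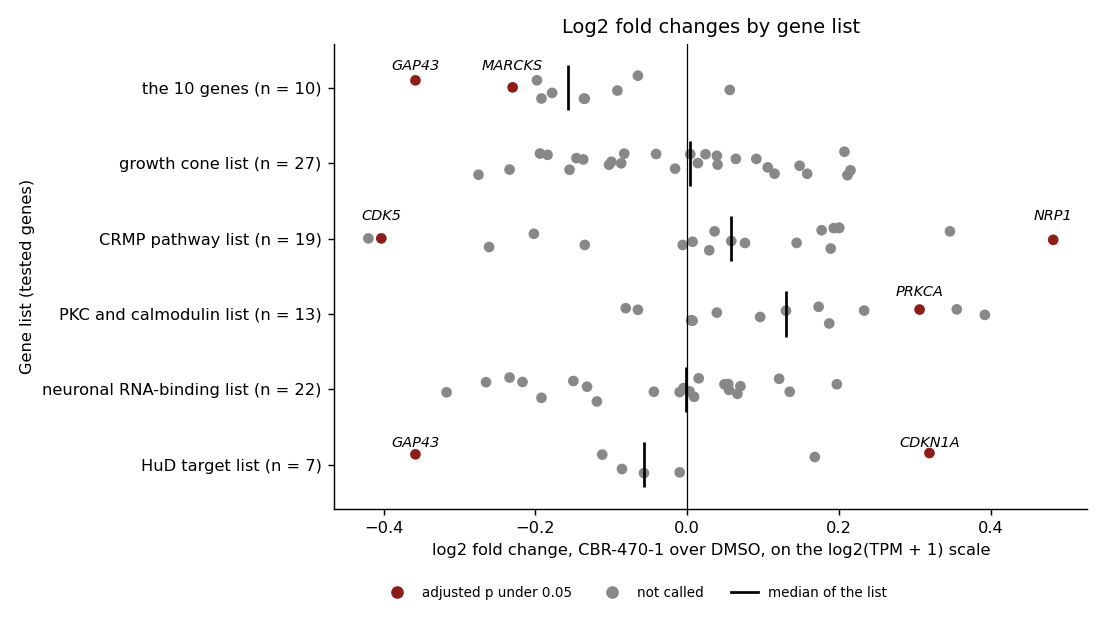
Each point is 1 tested gene, placed by its log2 fold change of CBR-470-1 over DMSO on the log2(TPM + 1) scale, with a row for the 10 genes and for each list and a bar at each median. Called genes are dark red and named. The 10 genes have a median of -0.157, and the growth cone and RNA-binding lists have medians of 0.004 and -0.001. Vertical scatter within a row has no meaning, and GAP43 appears in 2 rows.

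The genes whose pattern over the 6 libraries was most like that of each called gene were found by the root mean square difference of log2 values, each centred on its own mean, among 10466 other genes of at least 5 TPM. Nearest to GAP43 were SLC9A3R1 (difference 0.0274), MYBL2 (0.0299) and ZBED6CL (0.0313). MYBL2 had 128, 125 and 128 TPM in CBR-470-1, against 158, 158 and 166 TPM in DMSO. Nearest to MARCKS were SUMO3 (0.0148), GRAMD1A (0.0157) and WDR70 (0.0158). SUMO3 had 106, 107 and 109 TPM in CBR-470-1, against 124, 123 and 129 TPM in DMSO. These genes were picked for their likeness, so their lower levels add nothing to the result. Among the 10 themselves, the closest pair was ELAVL3 and DPYSL2 (difference 0.0283), followed by ELAVL3 and CRMP1 (0.0289).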

How the data were processed

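Polyadenylated RNA of 6 IMR32 libraries, 3 per group by their titles, was made into libraries, using a NEBNext Ultra kit as the labels' protocols state. The authors deposited TPM values per gene symbol. Per the submitters' processing notes, bcl2fastq and Salmon 0.7.2 were used on GRCh38; its annotation and options are not given in the sources. TPM is a share of a library, keeps no depth and allows no counting interval, so precision rests on the replicates. Salmon divides reads that match several transcripts by estimate, which can affect related genes.

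Values were tested as log2(TPM + 1) for the 13470 rows averaging 1 TPM or more, with limma 3.58.1 in R 4.3.3 (group only, empirical Bayes with variance trend, two-sided), Benjamini-Hochberg adjustment over all of them and a threshold of 0.05. The fit was tested on simulated data. No label says that replicates were separate cultures, so p-values measure the spread between these libraries, which may be technical. Means and SDs are of TPM. All 10 genes passed the filter in both groups. The GC and length correction removed from each library spline trends (5 degrees of freedom) over 13460 of these rows matched to GENCODE 29. The members and lists were chosen with earlier results of these data known. Every called gene of a list was named, and up to 4 others of at least 5 TPM with the largest absolute log2 fold change, except 1 gene that is not reported here. Alternatives were other pseudocounts, filters, scalings and variance models, the replicate number as a block, an adjusted p under 0.01 and each library left out. Same-numbered libraries were not paired: the correlations of their deviations from the group means were -0.138, -0.006 and -0.032.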

Additional observations from a re-analysis of the deposited data

How the results depend on the processing

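The count of 2 genes called lower among the 10 became 0 with no filter on low genes, with no variance trend, at an adjusted p under 0.01, with the replicate block and without any single library; it stayed within 1.5 times under the other alternatives, and none of the 10 was called higher under any alternative. No member other than ELAVL4 changed sign under any alternative; ELAVL4 was -0.039 with the GC and length correction. Calls over all genes, 265 as reported, numbered 82 with no filter, 428 with a filter of 5 TPM, 83 with no variance trend, 22 at an adjusted p under 0.01, 17 with the replicate block and 18 to 82 with 1 library left out.

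Called list members changed as follows. The CRMP pathway list, 2 as reported, had 1 with no filter, 3 with median centring, where CDK5R1 also passed, and 0 to 2 with 1 library left out. The protein kinase C and calmodulin list, 1 as reported, had 0 with no filter, 0 with quantile normalization and 0 to 0 with 1 library left out. The other RNA-binding list, 0 as reported, had 2 with median centring. The HuD target list, 2 as reported, had 0 with no filter, 0 to 0 with 1 library left out, and 1 each with quantile normalization, rescaling that leaves out mitochondrial and ribosomal protein genes, median centring and a pseudocount of 0.1 TPM. The causes of these moves, beyond fewer samples or more genes tested, were not tested.

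The difference in the CRMP1 over DPYSL2 log2 ratio, 0.001, was -0.004 with a pseudocount of 5 TPM and -0.022 to 0.026 with 1 library left out. No other ratio changed sign under its alternatives. The unknown depth limits statements on changes as small as those of ELAVL3, ELAVL4 and DPYSL3, whose intervals include 0.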
